A study of Homo sapiens with 8 samples.

Results

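The genes described here are 38 neighbouring genes at the short-arm end of human chromosome 6, from DUSP22 near the tip to TMEM14C and TMEM14B further in. They were chosen on measured values: many genes of this stretch read higher in libraries with the shCHD4 label than in libraries with the shSC label. All 38 were found by symbol among the 19583 rows of the table, and 34 passed a filter of a mean value of at least 1 over the 8 libraries. RNA was measured in MDA-MB-231, an established line from a breast cancer with mesenchymal-like features. The 4 groups of 2 libraries each were shSC at 20% O2, shSC at 1% O2, shCHD4 at 20% O2 and shCHD4 at 1% O2. Each O2 level was held for 24 hours, and all cells carried a hairpin label, with CHD4 named as the knockdown target of the second. The series asks how CHD4, the ATPase of the NuRD chromatin remodelling complex, bears on the response to low oxygen through hypoxia-inducible factors.

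CHD4 slides nucleosomes as part of NuRD, a complex that also carries histone deacetylases and acts at promoters and enhancers. Hypoxia-inducible factors build up when oxygen is low and switch on genes of glycolysis, blood vessel growth and survival. Copy number and chromatin marks of the stretch were not analysed here. The stretch holds genes of unrelated function: forkhead transcription factors, a cluster of clade B serpins (protease inhibitors), beta tubulins, the A subunit of coagulation factor XIII (F13A1) and desmoplakin (DSP), which ties intermediate filaments to desmosomes.

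The recovered reads ran from 24947627 to 31903585 per library. CHD4 itself was not lower under its hairpin's label: its normalised read count ran from 278.2 to 298.9 in the 4 shSC libraries and from 286.9 to 304.6 in the 4 shCHD4 libraries. The differences below are therefore differences between libraries with these labels. Nothing in the labels ties the libraries of a group to separate cultures. The errors and p-values thus cover library-to-library spread, which may be technical. Of 6 genes marking the line, VIM, CD44, AXL, CAV1 and FOSL1 were high in every library, while SPARC ran from 0.372 to 0.572 under shSC and from 6.08 to 6.56 under shCHD4. The summed level of the 6 was 6877 to 9522 under shSC and 8623 to 10196 under shCHD4. That sum is mostly VIM, 1.58-fold higher under shCHD4 at 20% O2 and 1.22-fold at 1% O2. CAV1 was 1.86-fold and 2.12-fold higher, while CD44 was 1.73-fold and 1.74-fold lower and FOSL1 1.67-fold and 1.88-fold lower. AXL was 1.11-fold higher at 20% O2 and overlapped between labels at 1% O2. Summed epithelial markers (6 genes, CDH1 at most 0.331) ran from 13 to 19.3 under shSC and from 6.24 to 7.93 under shCHD4. Of the keratins, KRT8 ran from 85.9 to 124.5 under shSC and from 211.5 to 243.1 under shCHD4, KRT18 from 210.8 to 251.7 and from 212.2 to 257.3, and KRT19 from 58.9 to 137.2 and from 30.8 to 52.1. Summed fibroblast markers (5 genes, mostly COL1A1) ran from 22 to 25.2 and from 33.1 to 37.5. The 2 leukocyte markers in the table summed to at most 0.778 and the 2 endothelial markers to at most 2.97. The part of these markers in the results was not tested. In bulk RNA, a change in the share of a kind of cell and a change in RNA per cell cannot be told apart. The oxygen-regulated gene NDRG1 had 97.2 and 98.2 at 20% O2 and 1449 and 1491 at 1% O2 under shSC. Under shCHD4 it had 68.3 and 65.6 and then 631.2 and 640.4.

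The promoters of 4 genes are shown because F13A1 and MYLK4 had the largest differences between labels, DSP differed by less, and GCNT2 differed by less than 1.5-fold. Each run is the 250 bases before the start, 5′ to 3′ on the gene's strand, from RefSeq on GRCh38.p14. Capitals mark CG dinucleotides, the bases at which human DNA is methylated. For GCNT2 the first of 4 listed starts is given.
F13A1 (chr6:6320663-6320912, - strand): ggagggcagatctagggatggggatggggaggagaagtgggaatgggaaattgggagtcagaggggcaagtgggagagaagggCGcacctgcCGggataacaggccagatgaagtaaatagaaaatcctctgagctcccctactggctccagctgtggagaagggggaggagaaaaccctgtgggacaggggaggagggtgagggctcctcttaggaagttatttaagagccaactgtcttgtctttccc
MYLK4 (chr6:2770377-2770626, - strand): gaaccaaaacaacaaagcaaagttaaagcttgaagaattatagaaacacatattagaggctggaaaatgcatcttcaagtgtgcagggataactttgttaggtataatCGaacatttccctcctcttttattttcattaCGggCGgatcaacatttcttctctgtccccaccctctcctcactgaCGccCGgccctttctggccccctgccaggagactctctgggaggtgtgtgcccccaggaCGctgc
GCNT2 (chr6:10521101-10521350, + strand): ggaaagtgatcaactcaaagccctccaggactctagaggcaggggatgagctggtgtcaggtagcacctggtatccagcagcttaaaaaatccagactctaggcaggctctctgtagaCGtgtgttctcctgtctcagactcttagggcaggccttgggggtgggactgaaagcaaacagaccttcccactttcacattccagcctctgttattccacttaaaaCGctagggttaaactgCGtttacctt
DSP (chr6:7541421-7541670, + strand): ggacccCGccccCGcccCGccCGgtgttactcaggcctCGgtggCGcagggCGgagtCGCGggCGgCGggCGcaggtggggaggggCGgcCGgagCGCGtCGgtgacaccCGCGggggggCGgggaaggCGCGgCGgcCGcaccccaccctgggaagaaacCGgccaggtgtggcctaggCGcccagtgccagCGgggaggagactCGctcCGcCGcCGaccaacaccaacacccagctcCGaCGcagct
F13A1 has 2 CG dinucleotides in this window, MYLK4 has 6, the GCNT2 start shown has 3 and DSP has 33. Over every listed start of a gene, taking the highest count, 1.05% of the 10033 tested genes with a promoter entry had fewer than F13A1, 4.66% fewer than MYLK4 and 2.91% fewer than GCNT2, whose highest count was 4. For DSP the share was 82.5%. Under 10 CG dinucleotides were found in 4 of the 36 listed genes with an entry (F13A1, MYLK4, GCNT2 and LY86), or 11.1%, against 8.85% of the tested genes. Of these, F13A1 and MYLK4 stood highest, GCNT2 had nearly equal levels under both labels, and LY86 did not pass the filter. Which start was in use in these cells was not examined, and a link between CG count and label difference was not tested.

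The label shift is a description, since it chose the genes, and no test of it is given for them. Among the 34 tested genes the median difference, shCHD4 minus shSC on the log2(value + 0.5) scale, was 0.82 at 20% O2 and 0.79 at 1% O2. Over all 12645 tested genes it was -0.009 and -0.007. Counts of genes at 1.5-fold or 2.5-fold, here and below, use this fitted difference. At 20% O2, 22 of the 34 were at least 1.5-fold higher under the shCHD4 label, where 14.6% of all tested genes were. At 1% O2, 19 of the 34 were, beside 15.9% of all. By the ratio of means FAM50B (1.65-fold) and TFAP2A (1.52-fold) also reached 1.5-fold at 1% O2. None of the 34 was at least 1.5-fold lower at either O2 level, where 17.4% and 18.2% of all tested genes were. The 19 genes of 1% O2 were also among the 22 of 20% O2. Most of the shift was of moderate size: 19 genes at 20% O2 and 15 at 1% O2 lay between 1.5-fold and 2.5-fold higher.

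The higher level was not shared by every gene of the stretch. At both O2 levels 12 of the 34 differed by less than 1.5-fold in the fitted difference. Of these, TFAP2A, GCNT2, PAK1IP1, TMEM14C and TMEM14B were the last listed genes in a row at the inner end. The others lay among genes that shifted, as the plot of differences in gene order shows. FOXC1, RREB1, SERPINB9 and GCNT2 had fitted differences under 0 at both O2 levels, with GCNT2 nearest to 0 at -0.09 and -0.01. Against the median of its 10 nearest tested genes (9 for FOXC1), each stood lower. For FOXC1 the distance was -1.04 at 20% O2 and -1.06 at 1% O2, for RREB1 -1.26 and -1.21, for SERPINB9 -0.96 and -1.02, and for GCNT2 -0.57 and -0.55. RIOK1, a kinase of small ribosomal subunit maturation, lay at -1.06 and -1.19 against its neighbours.

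**Figure D1:**
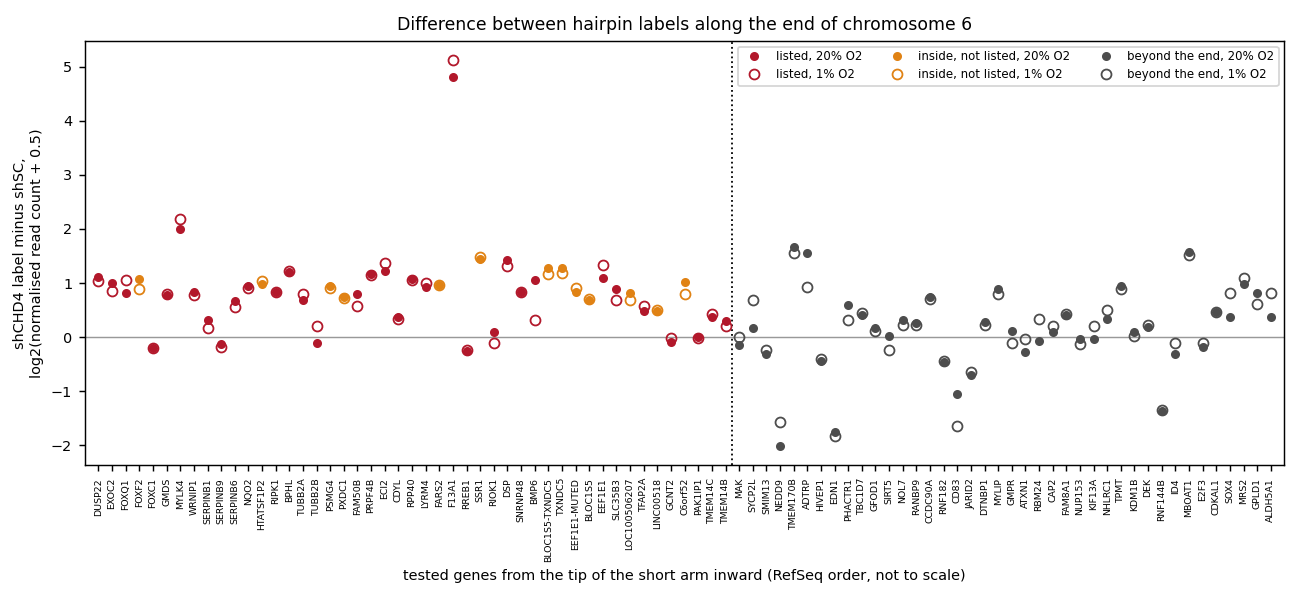
Each point is a tested gene, in RefSeq order from the tip of the short arm (left) inward. The vertical axis is the fitted difference, shCHD4 label minus shSC, in log2(normalised read count + 0.5), with filled points for 20% O2 and open points for 1% O2. Listed genes are red, unlisted genes inside the stretch orange and the next 40 tested genes grey, and the dotted line marks the end of the stretch. F13A1 stands highest at 4.80 and 5.12, and FOXC1, RREB1, SERPINB9 and GCNT2 lie under 0 at both O2 levels.

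F13A1 was the gene with the largest shift. It encodes the A subunit of factor XIII, the transglutaminase that cross-links fibrin. Its normalised read counts were 1.28 and 1.41 under shSC at 20% O2, 0.715 and 0.874 under shSC at 1% O2, 52.2 and 49.5 under shCHD4 at 20% O2, and 43.6 and 45.1 under shCHD4 at 1% O2. All 4 shCHD4 libraries were far above all 4 shSC libraries. The means stood 37.8-fold apart at 20% O2 and 55.8-fold apart at 1% O2, with fitted log2 differences of 4.80 (SE 0.10) and 5.12 (SE 0.10). The shSC values rest on 69 reads at 20% O2 and 46 reads at 1% O2, and the shCHD4 values on 2830 and 2545. The SE of F13A1 comes from a spread shared by all 4 groups, and may be too small for its low shSC counts. Its 10 nearest tested genes had a median of 0.94 at 20% O2 and 0.98 at 1% O2, so F13A1 lay 3.85 and 4.14 above them. The highest of these neighbours was SSR1, at 1.45 and 1.48.

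MYLK4, a member of the myosin light chain kinase family, was low and also stood above its neighbours. Its values were 0.331 and 0.409 under shSC at 20% O2, 0.465 and 0.571 under shSC at 1% O2, 2.81 and 3.1 under shCHD4 at 20% O2, and 4.05 and 4.24 under shCHD4 at 1% O2. The groups of the 2 labels did not overlap, and the means stood 7.99-fold and 8.01-fold apart. MYLK4 passed the filter only through its shCHD4 libraries, and so did BMP6. Both overlap other genes in RefSeq, MYLK4 the gene WRNIP1 and BMP6 the gene TXNDC5. Whether reads were counted by strand is unknown here, so the counts of both are uncertain. WRNIP1, an ATPase that binds the Werner helicase, was 1.78-fold higher at 20% O2 and 1.72-fold higher at 1% O2.

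On the log2(value + 0.5) scale, DSP had the third largest shift at 20% O2, behind F13A1 and MYLK4, and the fifth largest at 1% O2. By the ratio of means the low-count BMP6 stood above it at 20% O2, at 2.94-fold. Its values were 85.7 and 86.7 under shSC at 20% O2, 121.5 and 108.7 under shSC at 1% O2, 223.3 and 239.0 under shCHD4 at 20% O2, and 302.3 and 273.1 under shCHD4 at 1% O2. Every shCHD4 library was above every shSC library, by 2.68-fold at 20% O2 and 2.5-fold at 1% O2 in the means. Against its 10 neighbours DSP lay 0.41 and 0.39 higher on the log2 scale, and thus close to the rest of the stretch beside F13A1.

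**Figure D2:**
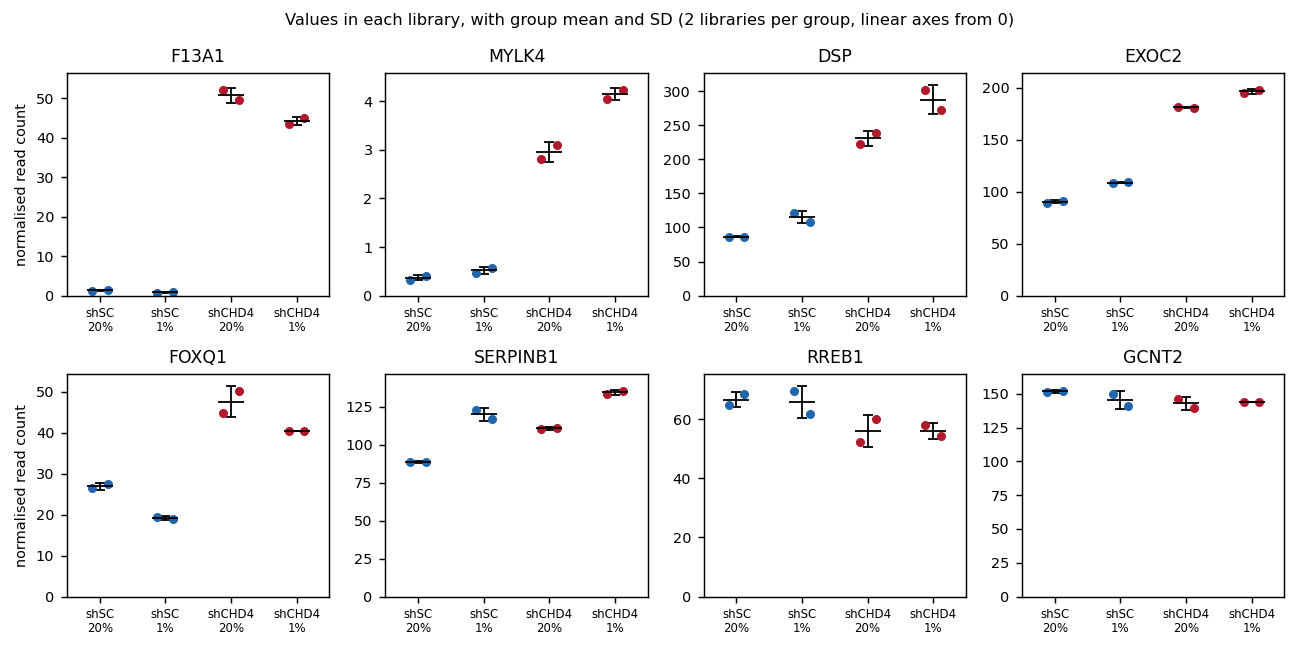
Normalised read counts of 8 listed genes in each of the 8 libraries (points, blue for shSC and red for shCHD4), with the group mean (horizontal bar) and SD (n = 2) on linear axes that start at 0. F13A1 lies at 0.715 to 1.41 under shSC and at 43.6 to 52.2 under shCHD4, RREB1 at 61.9 to 69.7 and at 52.3 to 60, and GCNT2 at 140.7 to 152.4 and at 139.7 to 146.3.

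Of the genes of metabolism, ECI2, which handles unsaturated fatty acids in peroxisomes, was 2.36-fold higher under the shCHD4 label at 20% O2 and 2.61-fold at 1% O2. BPHL, a serine hydrolase, was 2.40-fold and 2.45-fold higher, and GMDS, which begins GDP-fucose synthesis, 1.72-fold and 1.76-fold. NQO2, a quinone reductase, was 1.94-fold and 1.89-fold higher. The phosphatase DUSP22 was 2.22-fold and 2.09-fold higher. Of the RNA-processing genes, the splicing kinase PRPF4B was 2.23-fold and 2.22-fold higher, and RPP40, a subunit of RNase P, 2.14-fold and 2.10-fold. SNRNP48, of the minor spliceosome, was 1.79-fold and 1.81-fold higher. LYRM4, of iron-sulfur cluster assembly, was 1.92-fold and 2.03-fold higher, and EEF1E1, a scaffold of the tRNA synthetase complex, 2.14-fold and 2.55-fold. In transport, EXOC2, of the exocyst, was 2-fold and 1.80-fold higher, and the Golgi transporter SLC35B3 1.85-fold and 1.61-fold.

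Among signalling and structural genes, RIPK1, the kinase of death receptor signalling, was 1.79-fold and 1.80-fold higher. TUBB2A, a beta tubulin, was 1.62-fold and 1.75-fold higher, while its near-identical copy TUBB2B ran from 1.35 to 2.03 in all 8 libraries with no common direction. Reads of these copies, and of TMEM14B and TMEM14C, may have been split between them. The 3 serpins ran from higher to lower. SERPINB6 was 1.60-fold and 1.47-fold higher, SERPINB1 1.25-fold and 1.12-fold higher, and SERPINB9, an inhibitor of granzyme B, 1.09-fold and 1.15-fold lower. Of the forkhead factors, FOXQ1 was 1.77-fold and 2.11-fold higher and FOXC1 1.16-fold lower at both O2 levels. RREB1, a zinc finger factor, had 64.9, 68.5, 69.7 and 61.9 in the shSC libraries and 52.3, 60, 58 and 54.2 in the shCHD4 libraries. It had the lowest fitted difference of the 34 at both O2 levels, and its groups did not overlap between labels.

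The remaining genes were lower in count or changed less. TFAP2A was 1.41-fold and 1.52-fold higher, CDYL, a chromodomain protein, 1.30-fold and 1.26-fold, and FAM50B 2-fold and 1.65-fold at counts of 1.18 to 2.86. GCNT2, which makes branched I antigen chains, had 151.1 and 152.4 under shSC and 146.3 and 139.7 under shCHD4 at 20% O2, where the latter were lower without overlap. At 1% O2 it had 150.1 and 140.7 and then 144.3 and 144.1, which overlapped. The 4 genes that did not pass the filter were IRF4 (0.0336 to 0.262), SLC22A23 (0 to 0.225), NRN1 (0 to 0.0687) and LY86 (0 to 0.0374), and no comparison is given for them.

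Unlisted genes inside the stretch also read higher under the shCHD4 label. There were 13 such tested entries, with a median difference of 0.96 at 20% O2 and 0.90 at 1% O2. By the fitted difference 12 of 13 were at least 1.5-fold higher at each level, beside 14.6% and 15.9% of all tested genes. LINC00518, the other, was 1.54-fold higher by the ratio of means. The 13 are not all separate genes. TXNDC5 and its readthrough gene BLOC1S5-TXNDC5 had nearly equal reads. HTATSF1P2, FARS2, EEF1E1-MUTED and C6orf52 are among those that overlap listed genes. LOC100506207 passed the filter only through its shCHD4 libraries. SSR1 was the largest, followed by TXNDC5 and BLOC1S5-TXNDC5, both at 1.27 at 20% O2. All 13 lie in a stretch picked on this same contrast, so they are not independent of the choice. At the inner end the shift was small. The last 3 tested genes inside were PAK1IP1 (0.01 at 20% O2 and -0.02 at 1% O2), TMEM14C, of mitochondrial haem synthesis (0.37 and 0.42), and TMEM14B (0.29 and 0.20). The next 3 outside were MAK (-0.14 and 0.00), SYCP2L (0.16 and 0.68) and SMIM13 (-0.32 and -0.24). The next 40 tested genes had a median of 0.16 and 0.22 and spread from -2.01 to 1.66 at 20% O2. The 618 tested genes of the rest of chromosome 6 had medians of 0.24 and 0.25, and the 11672 on other chromosomes -0.02 at both levels.

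**Figure D3:**
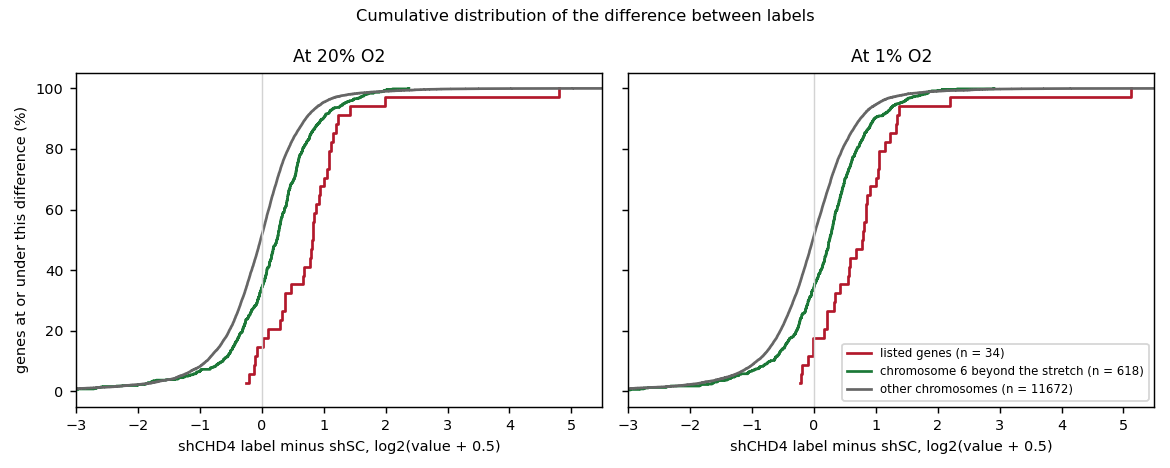
Share of genes (vertical axis, percent) at or under each difference, shCHD4 label minus shSC on the log2(value + 0.5) scale (horizontal axis), at 20% O2 (left) and 1% O2 (right). The line of the 34 listed genes (red) lies to the right of the 618 tested genes of the rest of chromosome 6 (green) and of the 11672 on other chromosomes (grey), with medians of 0.82, 0.24 and -0.02 at 20% O2.

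The oxygen comparisons did not choose the genes and were tested, with limma and Benjamini-Hochberg adjustment over all 12645 genes. Libraries of the 2 labels are not shared between these comparisons. Under shSC, 14 of the 34 genes passed the threshold of 0.05 between 1% and 20% O2, or 41.2%, where 35.2% of all tested genes did. Of these 7 rose (17.4% of all tested genes rose) and 7 fell (17.9% of all fell). Under the shCHD4 label 9 of 34 passed, or 26.5%, where 23.0% of all did, with 4 that rose (12.3% of all) and 5 that fell (10.7% of all). These shares are near those of the whole table. The median change was 0.009 under shSC and -0.01 under shCHD4, with genes on both sides of 0.

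The genes that rose at 1% O2 under both labels were SERPINB1, SERPINB6 and DSP. SERPINB1, an inhibitor of neutrophil elastase, had 88.9 and 88.4 at 20% O2 and 122.9 and 117.2 at 1% O2 under shSC, and 110.1 and 111.4 and then 133.5 and 135.7 under shCHD4. Both low-oxygen libraries were above both others under each label. The log2 change was 0.43 (SE 0.05, limma adjusted p = 9.69e-07) under shSC and 0.28 (SE 0.05, adjusted p = 0.000272) under shCHD4. DSP rose by 0.41 (SE 0.06, limma adjusted p = 2.66e-05) and 0.31 (SE 0.06, adjusted p = 0.000805), from the values given above. SERPINB6 had 75.8 and 77.1 at 20% O2 and 92.3 and 97.6 at 1% O2 under shSC, and 125.0 and 119.1 and then 134.8 and 143.4 under shCHD4. Its change was 0.31 and 0.19, with limma adjusted p of 0.000114 and 0.0121. The groups did not overlap by oxygen under either label.

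FOXQ1, FOXC1, NQO2 and RPP40 fell at 1% O2 under both labels. FOXQ1, a forkhead factor, had 26.4 and 27.5 at 20% O2 and 19.5 and 18.9 at 1% O2 under shSC, and 44.9 and 50.3 and then 40.5 and 40.5 under shCHD4. The log2 change was -0.48 (SE 0.07, limma adjusted p = 2.56e-05) and -0.23 (SE 0.07, adjusted p = 0.0188), and low-oxygen libraries were the lower ones under each label. NQO2 had 21.2 and 18.4 at 20% O2 and 16.7 and 16 at 1% O2 under shSC, and 39.4 and 37.4 and then 31.1 and 30.8 under shCHD4. Its changes were -0.26 and -0.31, with limma adjusted p of 0.0101 and 0.00662, and its oxygen groups did not overlap. RPP40 had 18.2 and 16.5 and then 15.4 and 13.2 under shSC, and 36.8 and 37.4 and then 30.5 and 29.4 under shCHD4, with changes of -0.27 and -0.31 and limma adjusted p of 0.0124 and 0.00982. FOXC1 changed by -0.21 under both labels, with limma adjusted p of 0.0198 and 0.0292. All 7 genes past the threshold under both labels had the same sign in both. The share of all tested genes that did so was not taken, so neither the count nor the shared sign is a result about this stretch. Some of these calls ended in an alternative: NQO2, RPP40 and FOXC1 under shSC, and FOXQ1, FOXC1, NQO2 and RPP40 under shCHD4. Under shSC, RPP40 and FOXC1 fell short with DESeq2 on all libraries (DESeq2 adjusted p = 0.0536 and 0.0785). FOXC1 did so under shCHD4 too (DESeq2 adjusted p = 0.0946). Without shSC 20% O2 replicate 1 the change under shSC was -0.162 for NQO2 and -0.201 for RPP40. Without shSC 1% O2 replicate 2 it was -0.233 and -0.164. For FOXC1 it was -0.167 without shSC 20% O2 replicate 2 and -0.145 without shSC 1% O2 replicate 2.

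A further 7 genes passed under shSC alone, though no difference between labels was shown for them. EXOC2 had 89.4 and 91.2 at 20% O2 and 108.7 and 108.8 at 1% O2 under shSC, a change of 0.27 (SE 0.04, limma adjusted p = 0.000113). Under shCHD4 it had 181.2 and 180.7 and then 194.4 and 197.9, a change of 0.12 (adjusted p = 0.0602). The low-oxygen libraries were the higher ones under both labels. SLC35B3 rose by 0.32 under shSC (limma adjusted p = 0.000802), from 32 and 33.3 to 43.6 and 38.2, and had 60.8 and 60.2 and then 64.2 and 67.7 under shCHD4. DUSP22 rose by 0.28 under shSC (limma adjusted p = 0.00526), from 13.2 and 12.2 to 15.3 and 15.7, and had 27.7 and 28.5 and then 32.4 and 32.3 under shCHD4, where the adjusted p was 0.0504. For both genes too the oxygen groups did not overlap under either label. SERPINB9 rose by 0.17 under shSC (limma adjusted p = 0.0368), but passed in neither fit without replicate 1 of an shSC group (adjusted p = 0.191 at 20% O2 and 0.268 at 1% O2), nor without replicate 1 or 2 of shCHD4 at 1% O2 (0.0522 and 0.0519).

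EEF1E1, F13A1 and ECI2 fell under shSC. EEF1E1 had 40.1 and 36.2 at 20% O2 and 27.6 and 31.5 at 1% O2, a change of -0.37 (SE 0.08, limma adjusted p = 0.00102). Under shCHD4 it had 85.7 and 77.9 and then 70.6 and 79.8, and these groups overlapped. F13A1 changed by -0.51 (SE 0.10, limma adjusted p = 0.000581) under shSC and by -0.19 (adjusted p = 0.164) under shCHD4. Its oxygen change under shSC is small beside its label difference and rests on few reads. The spread is shared over all 4 groups, so the high shCHD4 counts may make this SE and p too small for 69 and 46 reads. For TUBB2B, with 78 and 90 reads under shSC, the SE of this change was 0.15. ECI2 changed by -0.16 under shSC (limma adjusted p = 0.0273), with adjusted p of 0.165 without shSC 20% O2 replicate 1 and 0.143 without shSC 1% O2 replicate 1.

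Under the shCHD4 label alone TMEM14C rose by 0.18 (limma adjusted p = 0.0166) and RIOK1 fell by 0.19 (limma adjusted p = 0.0114). RIOK1 had 99.1 and 97.1 at 20% O2 and 86.8 and 84.9 at 1% O2 under this label, and 92.9 and 89.6 and then 95.7 and 88.6 under shSC, where the groups overlapped. Of the 9 calls under this label, 7 ended in at least 1 of 17 alternatives, each of them where a library of this label was left out. FOXQ1, FOXC1, SERPINB6, RIOK1 and TMEM14C also ended with all libraries kept, in the fit without a variance trend. SERPINB1 and DSP were the 2 calls kept in all 17 alternatives, which also included other pseudocounts, filters and tools.

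**Figure D4:**
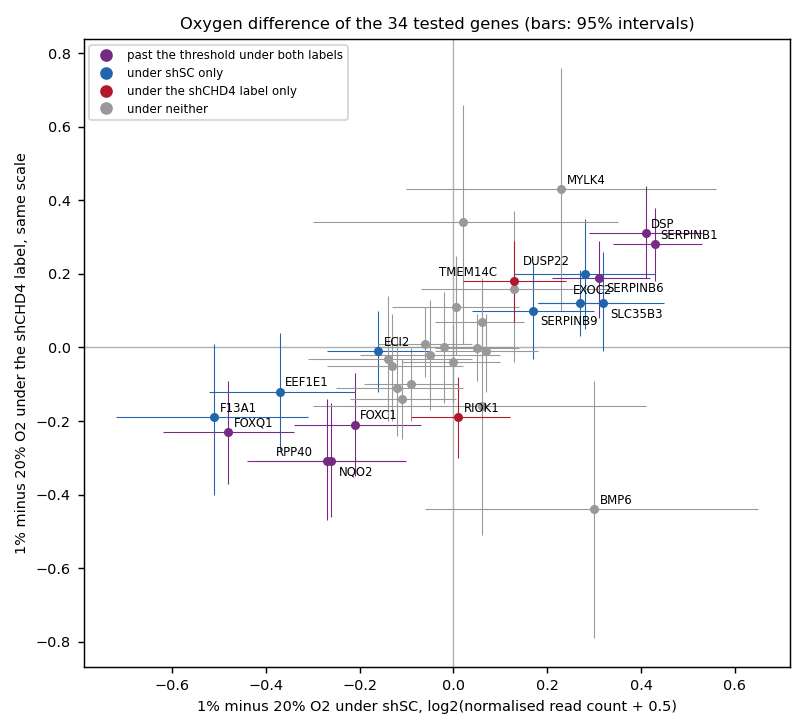
Each point is a listed gene, with the change from 20% to 1% O2 under shSC on the horizontal axis and under the shCHD4 label on the vertical axis, both in log2(normalised read count + 0.5), and bars for 95% intervals. Colours give where the gene passed an adjusted p of 0.05, and SERPINB1, DSP and SERPINB6 lie at the upper right with FOXQ1, NQO2, RPP40 and FOXC1 at the lower left.

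The difference of the oxygen change between labels passed the threshold for 0 of the 34 genes with limma, where 4.36% of all tested genes did. It was also 0 with edgeR and 0 with DESeq2. At an unadjusted p under 0.05 there were 8 of 34, or 23.5%, beside 18.2% of all tested genes. The largest such difference was that of BMP6, a bone morphogenetic protein, at -0.74 (95% interval -1.23 to -0.24, limma adjusted p = 0.0886). BMP6 had 0.621 and 0.631 and then 0.858 and 0.907 under shSC, and 2.02 and 1.66 and then 1.24 and 1.2 under shCHD4. Its oxygen groups did not overlap under either label and lay in opposite order. It is a low-count gene, with 32 to 102 reads per group. It passed the filter only through its shCHD4 libraries and overlaps TXNDC5, with the strand of counting unknown. BMP6 is also among the 8, and no conclusion is drawn from its difference.

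Cells at low oxygen use hypoxia-inducible factors, which bind DNA at a short core, ACGTG or GCGTG. That core, on either strand, was found in the 250 bases before at least 1 listed start in 23 of the 36 listed genes with an entry, or 63.9%. The share was 65.7% of the tested genes and 47.4% of all 27305 genes with an entry. Counted by single entry rather than by gene, it was 43.2% of all 35116 promoter entries of this length. The core was found in 5 of the 7 genes that rose at 1% O2 under shSC and in 4 of the 7 that fell. Both motifs contain a CG, and the palindrome CACGTG holds a match on each strand. The window of F13A1 printed above holds none, nor does that of DSP or MYLK4.

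Relatives of the listed genes outside the stretch were also read, of which PERP, TUBB and TNFAIP3 lie elsewhere on chromosome 6. Of the desmosome partners of DSP, 7 of 13 were tested, and under shSC 4 rose and 1 fell at 1% O2 (17.4% and 17.9% of all tested genes). Under shCHD4 2 rose and 0 fell (12.3% and 10.7% of all). PKP3, a plakophilin, rose by 0.79 (limma adjusted p = 1.54e-07) and 0.63 (adjusted p = 5.48e-06). PERP, a membrane protein of desmosomes, rose by 0.36 under shSC (limma adjusted p = 1.48e-05), and the plakophilin PKP2 by 0.27 (limma adjusted p = 0.000502). JUP, plakoglobin, named after its values were seen as the member against the others, fell by 0.32 under shSC and rose by 0.29 under shCHD4. Its oxygen change differed between labels by 0.61 (limma adjusted p = 0.00535), and that of PERP by -0.25 (limma adjusted p = 0.0429). Of the 7 tested, 1 passed upward and 1 downward for this difference, where 4.36% of all tested genes passed. JUP was at -1.37 at 20% O2 and -0.76 at 1% O2 between labels. Between labels at 20% O2, 2 of the 7 were higher and 4 lower, where 37.0% of all tested genes passed as higher and 38.6% as lower. At 1% O2 it was 1 higher and 5 lower, with 38.2% and 39.2% of all. DSG2, a desmosomal cadherin and the partner with the highest mean over the 8 libraries, was at -0.06 and -0.21 between labels.

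The only tested relative of F13A1 among transglutaminases and fibrin clot genes was TGM2, the tissue transglutaminase. It was lower under the shCHD4 label, by -1.31 at 20% O2 and -1.41 at 1% O2 on the log2 scale, the opposite direction to F13A1. Of 3 tested clade B serpins of another chromosome, 2 rose at 1% O2 under shSC (17.4% of all tested genes) and 1 did under shCHD4 (12.3% of all), with SERPINB8 at 0.38 and 0.36. Between labels 1 was higher and 2 lower at each O2 level, where 37.0% of all tested genes were higher and 38.6% lower at 20% O2, and 38.2% and 39.2% at 1% O2. Of 4 tested beta tubulins elsewhere, 3 were higher under the shCHD4 label at each O2 level (37.0% and 38.2% of all). TUBB, with the highest mean, was at 1.27 and 1.24. With oxygen 1 of the 4 rose under each label (17.4% and 12.3% of all), TUBB6, at 0.46 and 0.36.

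Of 11 tested partners of RIPK1, 4 were higher and 7 lower under the shCHD4 label at 20% O2, and 3 higher and 6 lower at 1% O2. Over all tested genes 37.0% were higher and 38.6% lower at 20% O2, and 38.2% and 39.2% at 1% O2. The ubiquitin ligase BIRC2, the partner with the highest mean, was at -0.95 and -0.94, and its paralogue BIRC3 at -2.97 and -3.14. TNFAIP3, named after its values were seen, was at -3.86 and -4.13, while PERP and TUBB, also elsewhere on chromosome 6, were higher under shCHD4. With oxygen 3 rose and 0 fell under shSC (17.4% and 17.9% of all), among them CYLD at 0.39 and FADD at 0.32. Under shCHD4 1 rose and 3 fell (12.3% and 10.7% of all), BIRC3 among the latter at -0.24. Of 8 tested exocyst partners of EXOC2, 2 were higher and 2 lower at 20% O2 and 2 higher and 4 lower at 1% O2, beside the same shares of all genes. With oxygen 1 of the 8 rose and 0 fell under each label, where 17.4% and 12.3% of all rose. It was EXOC1, at 0.27 and 0.18. EXOC5, the partner with the highest mean, was at 0.005 and 0.03 between labels.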

How the data were processed

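Polyadenylated RNA of 8 MDA-MB-231 libraries in 4 groups of 2 was analysed. Per the submitters' processing notes, the tools were featureCounts, edgeR, TopHat, Picard 1.127, FastQC 0.11.2 and bcl2fastq 2.17, on hg19. The sources used here do not state the annotation or the strand setting. The authors deposited a signal per gene, named FPKM, that was found to be a library's reads over a single scaling value, with no length term: 100% of values were whole multiples of a step within 0.01 reads. These values are called normalised read counts, and levels of different genes are not compared by length.

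The tests planned for FPKM were kept: limma 3.58.1 (R 4.3.3) on log2(value + 0.5) for the 12645 genes with a mean of at least 1, in 1 fit of 4 group means with a variance trend, two-sided, Benjamini-Hochberg adjustment at 0.05. Intervals are at 95%. The log2 scale understates the change of low genes. A plain fold is the ratio of group means. Counts of genes at 1.5-fold or 2.5-fold use the fitted log2 difference instead. The script was tested on simulated data. Alternatives were other pseudocounts, no filter, no trend, quantile normalization, edgeR 4.0.16 and DESeq2 1.42.0 on the recovered reads, a replicate block and leaving out each library. Exclusion of listed genes that overlap another gene or have a near-identical copy, and crossed replicate numbers, were added after seeing the data.

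The genes, lists and tests were chosen with earlier results of these data known. All 38 genes are accounted for, with values in every library for DSP, F13A1, the largest label differences and the 12 smallest p-values with oxygen or its interaction with label; others were given in full after their values were seen. Of each list of relatives, the text names up to 3 members by smallest oxygen p and the member with the highest mean. Gene order and names came from RefSeq GRCh38.p14 (17289 symbols and 1486 synonyms matched, 808 did not); as the table's build is hg19, coordinates are given for promoter sequences alone. WRNIP1 and PRPF4B had no promoter entry.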

Additional observations from a re-analysis of the deposited data

How the results depend on the processing

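The median label difference of the listed genes, 0.820 at 20% O2 and 0.788 at 1% O2, kept its direction in every alternative run. The genes were chosen on this contrast in these same libraries, so the kept direction is no independent support for the shift. At 20% O2 it was 0.800 with a pseudocount of 1, 0.892 with quantile normalization, 0.847 with edgeR and 0.848 with DESeq2, and at 1% O2 it was 0.845 with quantile normalization. Without the 13 listed genes that overlap another gene or have a near-identical copy, an alternative chosen after seeing the data, it was 0.788 at 20% O2 and 0.684 at 1% O2 over the 21 left. Leaving out 1 library gave 0.807 to 0.853 at 20% O2 and 0.755 to 0.806 at 1% O2. With quantile normalization the median label difference of all genes was 0.060 at 20% O2 and 0.053 at 1% O2. In the fit reported above it was -0.009 and -0.007.

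Under shSC, 11 to 14 listed genes passed with 1 library left out, 15 with edgeR and 10 with DESeq2, and 9 of the 14 calls held in all 17 alternatives. FOXC1, SERPINB9, NQO2, ECI2 and RPP40 did not. Under the shCHD4 label the count of 9 was 13 with edgeR and 8 with DESeq2. No count over all tested genes is set beside these, so neither is a result about this stretch. With 1 library left out the counts under both labels moved, and under shSC so did the count over all tested genes. Under the shCHD4 label the count fell without any 1 of its own libraries. There the lone sample of a group is assumed to vary like the other groups. The interaction passed for 1 listed gene, BMP6 (limma adjusted p = 0.0301), without a variance trend. BMP6 passed the filter only through its shCHD4 libraries, so no conclusion is drawn from it.

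The replicate numbers did not pair the libraries: correlations of deviations between groups ran from -0.121 to 0.124. With a replicate block 14 listed genes passed under shSC, 9 under the shCHD4 label and 0 for the interaction. With the numbers of the shCHD4 1% O2 libraries crossed, a choice made after seeing the data, the counts were 15, 9 and 0. Over the single listed genes, 46 results fell short of the threshold under an alternative and 28 came to pass it, and none that passed in either fit changed sign. Values near 0 that passed in neither changed sign 55 times, in 25 results. The causes were not tested. With 2 libraries a group, small changes may not be detectable, and F13A1 and MYLK4 rest on 46 to 69 and 19 to 30 reads per group under shSC.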
